A study of Mus musculus with 4 samples.

Results

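The genes of heme and endotoxin sensing through Toll-like receptor 4 (TLR4) and of the NLRP3 inflammasome were examined in whole lung of mice labelled SCD, for sickle cell disease, and of WT mice. The 10 genes were chosen by name: Hmgb1, Tlr4, Cd14, Ly96, Myd88, Nlrp3, Pycard, Casp1, Casp4 and Gsdmd, out of 30719 genes measured. Where a gene had several probe sets the brightest on average over the 4 arrays was to be used, but each of the 10 had 1. For 9 of them the probe set carried that gene alone. The probe set of Hmgb1 is also annotated to the predicted gene Gm21596, so that its values cannot be assigned to Hmgb1 by itself.

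There were 2 arrays from SCD lungs, of the strain given as SCD Tg, and 2 from WT lungs, of the strain given as C57/BL6. All animals were adult and matched for age, and the labels, which describe cervical euthanasia, name no treatment in either group. The transgene or knock-in behind SCD Tg, its promoter, the strain background, the sex and the exact age are not stated in the labels. Values are log2 expression after the authors' robust multi-array averaging, and differences are SCD minus WT on that scale, ± the moderated standard error (SE) from limma, with n = 2 arrays a group. A gene was called at a Benjamini-Hochberg adjusted p under 0.05 over all 30719 genes. The labels do not tie arrays to individual animals, and the p-values therefore measure only the spread between these arrays, which may be technical. In whole lung, more cells of a type and more RNA in each cell cannot be told apart.

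As background, TLR4 is the receptor of bacterial endotoxin on myeloid cells and endothelium; it binds its ligands together with MD-2, and CD14 delivers them. Heme set free from lysed red cells, which is abundant in sickle cell disease, is reported to signal through TLR4, and the nuclear protein HMGB1 does so when cells release it. Signals through the adaptor MyD88 induce the genes of the NLRP3 inflammasome and of interleukin-1 beta; the assembled inflammasome then activates the protease caspase-1, which matures the cytokine and, like the endotoxin-sensing caspase-11, cuts gasdermin D into a membrane pore.

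Casp4, which encodes mouse caspase-11, rose in SCD lung and was the 1 member called; 0 members were called lower. Over all genes, 2.45% were called higher and 0.635% lower (3.09% in either direction), and limma had 5 members at an unadjusted p under 0.05, all of them higher in SCD. Over all genes, 16.7% had such a p, 10.6% higher and 6.08% lower in SCD. The difference was above 0 for 9 of the 10 members, with a median of 0.45 against 0.002 over all genes. Both SCD arrays lay above both WT arrays for 8 members, which was so for 25.3% of all genes. Both lay below for 1, the shared probe set of Hmgb1 and Gm21596 (22.5% of all genes), and the groups overlapped for 1, Gsdmd.

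**Figure D1:**
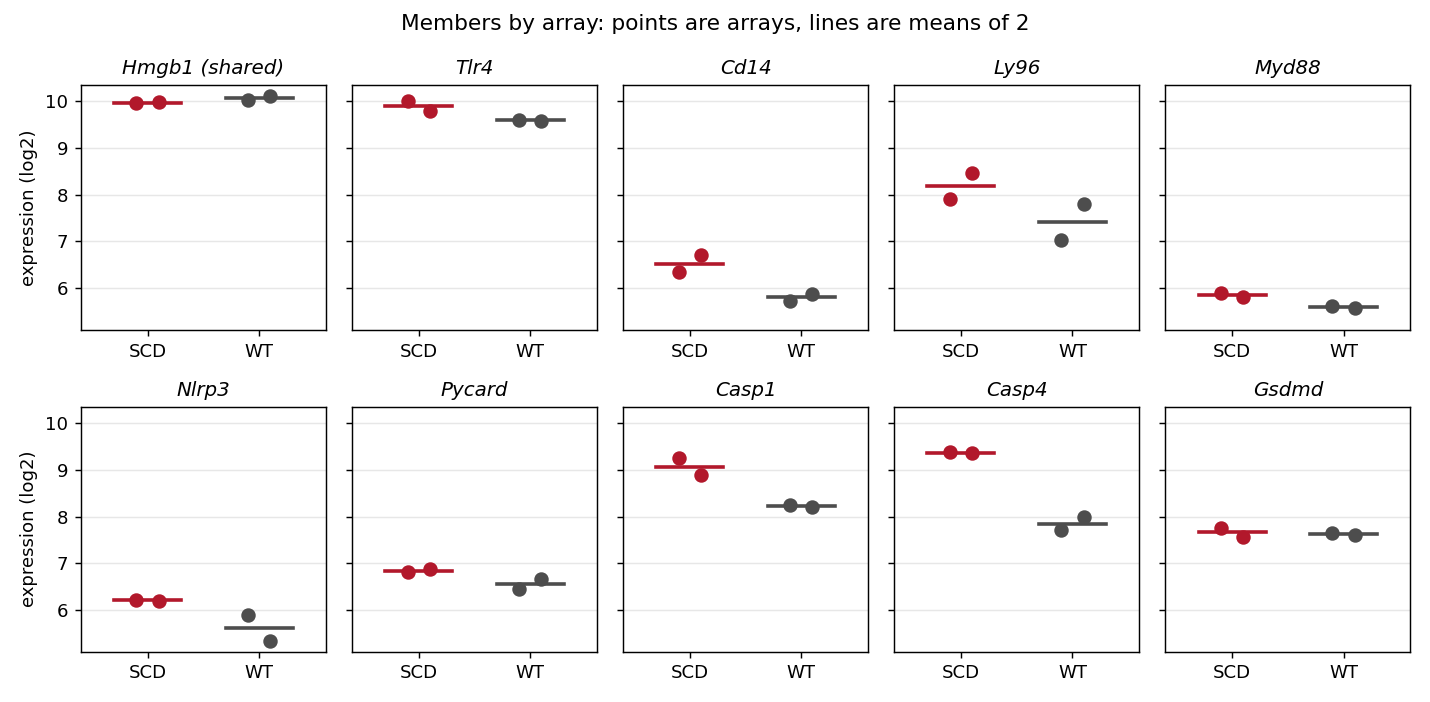
Log2 expression of the 10 members (vertical axis) on each SCD and WT array, with points for arrays and lines for group means. Casp4 shows the widest gap, with SCD arrays at 9.38 and 9.36 against WT arrays at 7.70 and 7.98, while the groups overlap for Gsdmd; the Hmgb1 panel is the probe set shared with Gm21596.

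Casp4 measured 9.38 and 9.36 on the SCD arrays, against 7.70 and 7.98 on the WT arrays. Every SCD value was more than 1 log2 unit above every WT value, with a gap of 1.38 between the groups. The difference was 1.53 ± 0.13, or 2.89-fold, with an adjusted p of 0.0082 in limma. It ranked at place 238 of 30719 genes by p. With either SCD array left out, the size held (1.52 without SCD replicate 1 and 1.54 without SCD replicate 2) but the call was lost, at adjusted p of 0.104 and 0.108, as limma then called 0 genes in all; unadjusted p-values under 0.05 were found for 3307 genes without SCD replicate 1 and 3270 without SCD replicate 2.

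Casp1 encodes caspase-1, the effector of the inflammasome. It measured 9.26 and 8.88 on the SCD arrays, against 8.24 and 8.20 on the WT arrays, so that the groups did not overlap. The difference of 0.85 ± 0.15 (1.80-fold, 95% interval 0.47 to 1.24) did not pass, at an adjusted p of 0.0614. It passed, at 0.0397, when the dimmest 50% of genes were left out of the test.

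Casp1 and Casp4 are neighbours on chromosome 9, followed in the RefSeq order by Casp12, which encodes a caspase of the same inflammatory family. Casp12 measured 7.83 and 7.78 on the SCD arrays, against 7.32 and 7.20 on the WT arrays. Its difference of 0.547 ± 0.105 did not pass (adjusted p = 0.0744). Both SCD arrays thus lay above both WT arrays for all 3 caspase genes, by unequal amounts. That order held for 25.3% of all genes. The measured genes to either side were looked up for their position. Gm24896 was at 0.16 ± 0.23 and Pdgfd, a growth factor gene, at 0.38 ± 0.16. Neither passed, as Casp1 and Casp12 did not. Pdgfd also had both SCD arrays (8.75 and 8.41) above both WT arrays (8.33 and 8.07).

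The promoter windows of these 3 neighbours are shown because Casp4 was the member that rose and the others lie beside it. Each runs from 250 bases before to 50 after a start site of the gene, from RefSeq on GRCm38.p6, 5′ to 3′ along the gene. They lie at chr9:5308599-5308898 for Casp4, chr9:5298267-5298566 for Casp1 and chr9:5345226-5345525 for Casp12, all on the plus strand. Casp4 has a further entry that starts 11 bases downstream. Capitals mark matches to the motifs searched. Those were the NF-kB consensus, an interferon response core (GAAA, any 2 bases, GAAA), the STAT core TTCNNNGAA and the AP-1 core TGANTCA, each on both strands.
Casp4: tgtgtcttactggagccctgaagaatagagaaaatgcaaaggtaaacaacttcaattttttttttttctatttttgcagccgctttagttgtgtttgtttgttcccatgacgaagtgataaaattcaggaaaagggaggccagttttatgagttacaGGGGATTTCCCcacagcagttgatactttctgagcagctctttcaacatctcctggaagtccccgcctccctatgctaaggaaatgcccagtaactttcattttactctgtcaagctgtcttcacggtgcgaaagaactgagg
Casp1: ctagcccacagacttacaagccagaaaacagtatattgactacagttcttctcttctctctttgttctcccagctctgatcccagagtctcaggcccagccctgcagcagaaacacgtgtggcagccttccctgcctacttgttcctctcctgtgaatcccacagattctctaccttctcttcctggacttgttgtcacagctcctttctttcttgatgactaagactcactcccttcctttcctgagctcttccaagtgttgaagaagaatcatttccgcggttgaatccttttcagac
Casp12: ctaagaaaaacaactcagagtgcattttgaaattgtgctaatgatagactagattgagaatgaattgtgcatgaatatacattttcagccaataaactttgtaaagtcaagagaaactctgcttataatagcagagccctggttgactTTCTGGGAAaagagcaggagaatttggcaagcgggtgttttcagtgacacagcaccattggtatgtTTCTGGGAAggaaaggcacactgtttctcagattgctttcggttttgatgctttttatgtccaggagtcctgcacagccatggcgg

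The Casp4 window held overlapping NF-kB matches on both strands, from -93 to -83 relative to the start site, with the letters GGGGATTTCC and GGGATTTCCC. An NF-kB match was found in 4.51% of all 32851 promoter windows of this length. The Casp1 window held no match to any of the 4 motifs, and the Casp12 window held the STAT core at 2 places (8.3% of all windows have it). The AP-1 core, which 7.81% of all windows hold, was in none of the members' windows. Among the other members, 1 of the 2 Nlrp3 windows held an NF-kB match, and the Myd88 window held the interferon response core (3.44% of all windows) overlapping a STAT core. The windows of Pycard and Hmgb1 held none. Nor did the window of Il1b, a gene described below that is not a member, hold any match. Sequence windows were matched for 6 of the 10 members. A match describes letters only; no binding was measured.

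Casp4 is known to be defective in some inbred mouse strains, so genes that differ between inbred strains were set beside it. Of 5 such genes with a probe set of their own, Ly6c1 rose by 1.53 ± 0.06, while Erdr1 and Hc, the complement C5 gene, fell by 1.83 ± 0.075 and 0.38 ± 0.06. Nnt (-0.28 ± 0.10) and H2-Ea (0.13 ± 0.18) did not pass. The Hc call was lost with the replicate block (adjusted p = 0.055), without the intensity trend (0.17), with the robust prior (0.0704), with repeated quantile normalization (0.0616), with equal array medians (0.106) and without either WT array (0.0756 and 0.0635). The part of strain background in the Casp4 difference was not tested.

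**Figure D2:**
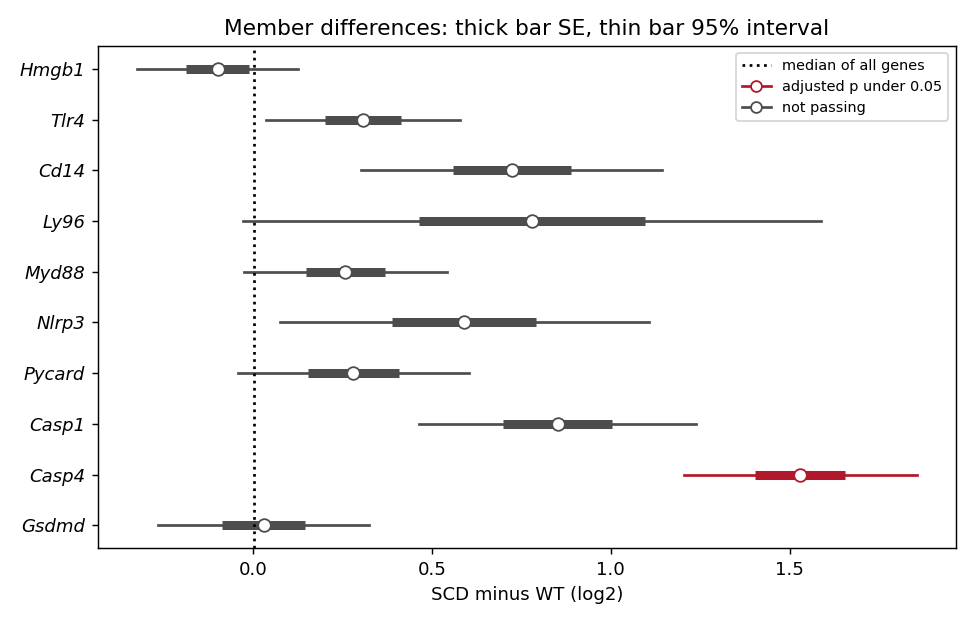
SCD minus WT difference on the log2 scale (horizontal axis) for the 10 members in order of role, with SE (thick bars) and 95% intervals (thin bars) from limma. Casp4 at 1.53 is the member called; the intervals of Ly96, Myd88, Pycard, Gsdmd and the Hmgb1 probe set span 0.

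On the ligand side, the probe set of Hmgb1 and Gm21596 measured 9.959 and 9.997 on the SCD arrays, against 10.038 and 10.116 on the WT arrays. The SCD arrays were slightly below the WT arrays, by a gap of 0.04 between the groups. The difference of -0.10 ± 0.09 did not pass (adjusted p = 0.657), and its 95% interval ran from -0.32 to 0.13. HMGB1 acts after release of the protein, which RNA does not measure.

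Of the receptor complex, Tlr4 measured 10.002 and 9.804 on the SCD arrays, against 9.603 and 9.588 on the WT arrays. The groups did not overlap, but the difference of 0.31 ± 0.11 (95% interval 0.04 to 0.58) did not pass (adjusted p = 0.245). Cd14, the co-receptor gene that is abundant in monocytes, measured 6.34 and 6.71 on the SCD arrays and 5.72 and 5.88 on the WT arrays. Its SCD arrays were both higher, with a difference of 0.72 ± 0.16 (95% interval 0.30 to 1.14) that did not pass (adjusted p = 0.109). Ly96, which encodes MD-2, measured 7.91 and 8.48 on the SCD arrays and 7.03 and 7.80 on the WT arrays. Its difference of 0.78 ± 0.32 was close to that of Cd14, but arrays within each group were far apart, and the 95% interval reached from -0.03 to 1.59 (adjusted p = 0.315). It was 0.40 without WT replicate 1 and 1.17 without WT replicate 2.

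Myd88, the adaptor shared by most Toll-like receptors and the interleukin-1 receptor, measured 5.90 and 5.80 on the SCD arrays, against 5.61 and 5.58 on the WT arrays. The arrays of each group lay close together and apart from the other group, with a difference of 0.26 ± 0.11 that did not pass (adjusted p = 0.34).

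Nlrp3, the inflammasome sensor, measured 6.22 and 6.19 on the SCD arrays, against 5.89 and 5.34 on the WT arrays. The SCD arrays were nearly alike and the WT arrays were spread, and the difference of 0.59 ± 0.20 (95% interval 0.08 to 1.11) did not pass (adjusted p = 0.239). It was 0.86 without WT replicate 1 and 0.32 without WT replicate 2. Pycard, which encodes the adaptor ASC that links sensor to caspase, measured 6.80 and 6.87 on the SCD arrays, against 6.44 and 6.67 on the WT arrays, a difference of 0.28 ± 0.13 that did not pass (adjusted p = 0.361) and was 0.17 without WT replicate 1. Both genes thus had higher SCD arrays, and neither difference passed.

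Gsdmd, the gene of the pore protein that both caspases cut, measured 7.75 and 7.56 on the SCD arrays, against 7.66 and 7.60 on the WT arrays. The SCD arrays lay on either side of the WT arrays. The difference was 0.03 ± 0.12 (95% interval -0.27 to 0.32, adjusted p = 0.935), and it turned to -0.17 when the shift of the positive control probe sets was taken off the SCD arrays.

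Over all genes, the arrays of a group correlated at 0.995 (SCD) and 0.992 (WT), and arrays of different groups at 0.986 to 0.988. Some members were dim. Nlrp3 and Myd88 lay below the median of the negative control probe sets on all 4 arrays, Cd14 on both WT arrays and Pycard on 1 WT array; that median was 6.31 and 6.28 on the SCD arrays and 6.48 and 6.47 on the WT arrays. On every array the 10 members exceeded the antigenomic background median, which ranged from 3.26 to 3.40. The positive controls had medians 0.20 higher on the SCD arrays than on the WT arrays. SCD minus WT was 0.171 for the spiked hybridization controls, 0.057 for the antigenomic background and -0.184 for the negative controls. The control sets thus did not share 1 shift. With the 0.20 of the positive controls taken off every SCD value, the median over all genes was -0.19. Of the called genes 47.7% were then higher in SCD, against 79.5% as deposited. Casp4 still passed then, at 1.33 (adjusted p = 0.0151), and 8 of 10 members had a difference above 0. Tlr4, Myd88 and Pycard were at 0.11, 0.06 and 0.09 then, and Nlrp3 at 0.40, against 0.31, 0.26, 0.28 and 0.59 as deposited, and the shared Hmgb1 probe set was at -0.30; none of these passed.

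Beyond the members, 103 of 111 other genes of these pathways were measured, in 10 lists. Of these, 8 rose, 1 fell and 94 did not pass, against 2.45% called higher and 0.635% lower over all genes. The median difference was 0.14, against 0.002 over all genes. Without SCD replicate 1 or SCD replicate 2 the pathway calls, and those of the strain genes and markers, were lost as for Casp4. The calls lay in 3 of the lists, those of ligand delivery and alarmins, of interleukin 1 family cytokines and of genes that TLR4 induces.

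Interleukin 1 family cytokines rose in 3 of 4 cases. Il1b, whose product caspase-1 matures, measured 8.97 and 9.07 on the SCD arrays, against 6.62 and 6.11 on the WT arrays. The SCD arrays were all above the WT arrays, with a difference of 2.65 ± 0.19 (6.3-fold, adjusted p = 0.0078). The alarmin genes Il33 and Il1a rose by 2.39 ± 0.10 and 1.30 ± 0.15. Il18, whose product the same caspase matures, measured 7.08 and 7.04 on the SCD arrays and 7.08 and 7.12 on the WT arrays, a difference of -0.05 ± 0.10 that did not pass.

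**Figure D3:**
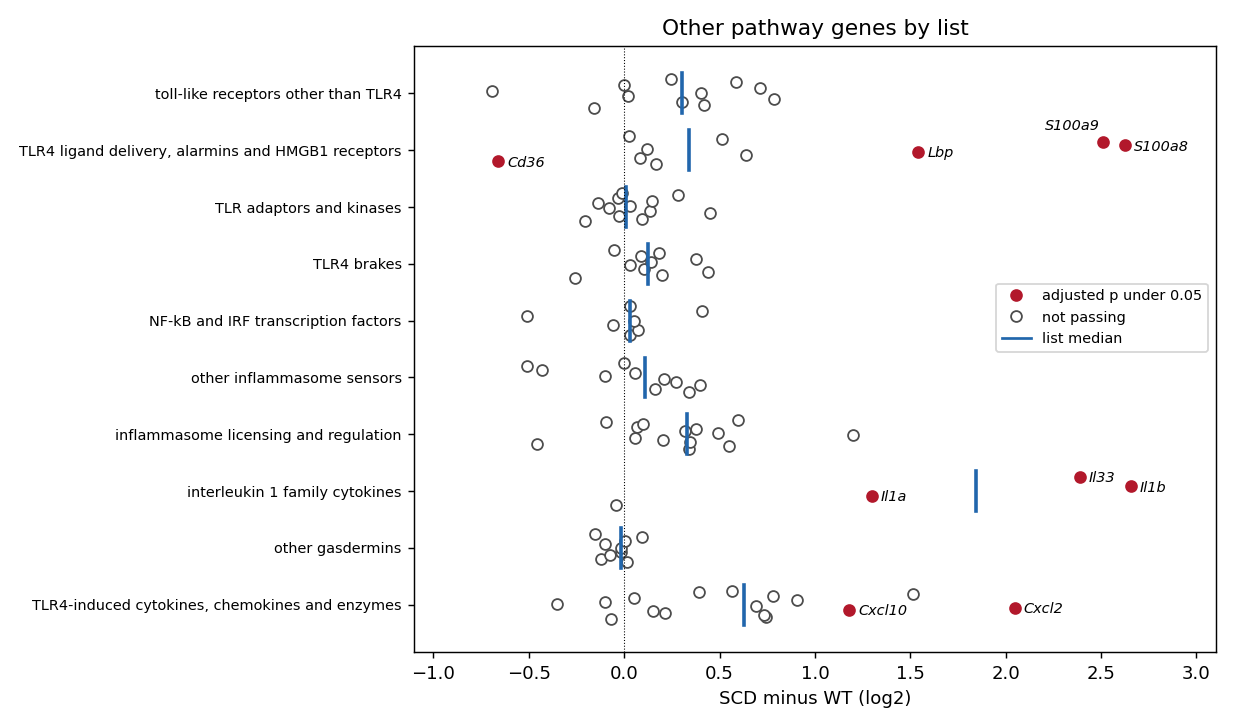
SCD minus WT difference on the log2 scale (horizontal axis) of each measured gene in the 10 pathway lists (rows), with called genes filled and named and the list median as a vertical bar. Called genes lie in 3 lists, with Il1b and S100a8 farthest to the right and Cd36 to the left.

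Among 10 genes of ligand delivery, alarmins and HMGB1 receptors, 3 rose and 1 fell. S100a8, which encodes part of the TLR4 ligand calprotectin, measured 18.21 and 18.36 on the SCD arrays, against 15.43 and 15.89 on the WT arrays. It rose by 2.62 ± 0.16, and its partner S100a9 by 2.51 ± 0.11. Lbp, whose product hands endotoxin to CD14, measured 12.07 and 12.06 on the SCD arrays, against 10.26 and 10.78 on the WT arrays. It rose by 1.54 ± 0.18 (2.91-fold, adjusted p = 0.0204). Cd36, a scavenger receptor gene, fell by 0.66 ± 0.05 (adjusted p = 0.0078), a call lost without the intensity trend (adjusted p = 0.0568).

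Of 16 cytokine, chemokine and enzyme genes that TLR4 induces, 2 rose, 0 fell and 14 did not pass. Cxcl2, a neutrophil chemokine gene, measured 7.75 and 8.21 on the SCD arrays, against 6.13 and 5.74 on the WT arrays. It rose by 2.05 ± 0.22, and Cxcl10, the gene of a chemokine that also responds to interferon, by 1.18 ± 0.12 (adjusted p of 0.0155 and 0.014). Cxcl10 measured 6.065 and 6.24 on the SCD arrays, against 4.993 and 4.955 on the WT arrays. These values lay below the negative control median on all 4 arrays, as did those of Cxcl2 on both WT arrays. In this list 13 of 16 differences were above 0, with a median of 0.63, and 10 genes had an unadjusted p under 0.05 in limma, all higher (10.6% of all genes were). The Cxcl10 call was also lost without WT replicate 1 or WT replicate 2 (adjusted p of 0.0635 and 0.0558) and that of Cxcl2 without WT replicate 2 (0.0573).

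No gene was called in the other 7 lists. Among 11 Toll-like receptor genes other than Tlr4, 9 had a difference above 0 and 5 an unadjusted p under 0.05 in limma, 4 of them higher and 1 lower. Tlr6, a partner of TLR2, was at 0.71 ± 0.12 (adjusted p = 0.0523), with values below the negative control median on every array. Tlr5, the flagellin receptor gene, was at -0.70 ± 0.12 (adjusted p = 0.0546), of like size in the other direction, and Tlr2 itself was at 0.02 ± 0.13. Among 12 adaptors and kinases the smallest p was that of Irak2 (0.45 ± 0.10, adjusted p = 0.107), and 1 gene had an unadjusted p under 0.05. Among 10 brakes on TLR4, Ly86, a partner gene of Cd180, was at 0.44 ± 0.13 (adjusted p = 0.199), again the 1 gene under an unadjusted p of 0.05. Of 7 NF-kB and IRF genes, 2 were under an unadjusted p of 0.05; Rel, the c-Rel subunit, was at -0.51 ± 0.10 (adjusted p = 0.0865) and Rela, the p65 subunit, at 0.41 ± 0.11 (adjusted p = 0.169).

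Of 10 other inflammasome sensor genes, 5 had an unadjusted p under 0.05, against 16.7% of all genes. Nlrp1b and Nlrp1a were lower, at -0.51 ± 0.11 (adjusted p = 0.0908) and -0.43 ± 0.11. Both lay below the negative control median on every array, and that median was itself 0.184 lower in SCD than in WT. Naip2, Naip5 and the DNA sensor gene Aim2 were higher, at 0.40 ± 0.12, 0.27 ± 0.10 and 0.34 ± 0.10. Among 14 genes of inflammasome licensing and regulation, 7 were under an unadjusted p of 0.05, 6 higher and 1 lower. Zbp1, a nucleic acid sensor gene, was at 0.60 ± 0.10 (adjusted p = 0.0602), and Casp8, which encodes a caspase of cell death, was the lower one at -0.46 ± 0.11 (adjusted p = 0.121). Nek7, whose kinase binds NLRP3, measured 11.15 and 11.49 on the SCD arrays, against 10.71 and 10.95 on the WT arrays, and its difference of 0.49 ± 0.15 did not pass (adjusted p = 0.209). The 9 other gasdermin genes had a median difference of -0.02, with 0 at an unadjusted p under 0.05 in limma. All 9 lay below the negative control median on every array, where a difference may go unseen. Pjvk had the smallest p among them, with a difference of -0.16 ± 0.17.

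Patterns over the 4 arrays were compared with that of Casp4 among protein-coding genes only, by Euclidean distance of values centred on each gene's mean. The nearest were the ferrireductase gene Steap4 (distance 0.045), the epoxide hydrolase gene Ephx1 (0.079) and Spata18 (0.086). Their differences were 1.54, 1.47 and 1.46. This likeness rests on 4 arrays in 2 groups and is a description.

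Markers of leukocytes that express these members also differed between the groups. Of 10 neutrophil markers, 7 rose and 0 fell, and all 10 differences were above 0. Ltf, the lactoferrin gene, rose by 1.67 ± 0.11. The summed linear level of the list was 442035 and 492995 on the SCD arrays, against 68920 and 90834 on the WT arrays. That sum is carried by the bright S100a8 and S100a9, which are also in the alarmin list. The defining marker Ly6g (0.34 ± 0.11) did not pass and was dim, with 5.77 and 5.76 on the SCD arrays and 5.36 and 5.50 on the WT arrays. Values on this scale did not reach 0 (the lowest was 1.72), so they cannot show a marker as absent. By WT mean, 4 of the 10 neutrophil, 2 of 5 platelet and 3 of 4 erythroid markers lay below the negative control median.

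Of 9 monocyte and macrophage markers, 2 rose and 0 fell: Ly6c2 by 1.55 ± 0.05 and the chemokine receptor gene Ccr2 by 1.11 ± 0.10. Ly6c1, of the strain list, rose by 1.53 ± 0.06, close to Ly6c2. The part of strain background in the Ly6c2 difference was not tested. The macrophage gene Chil3 (0.39 ± 0.08) did not pass, and neither did Plac8 (-0.10). The summed level of these markers was 1008172 and 1006341 on the SCD arrays, against 930153 and 931255 on the WT arrays. Most of it was Lyz2, at 19.75 on every array. Of 7 alveolar macrophage markers, Car4, which lung capillary endothelium also expresses, rose by 1.18 ± 0.09 and Marco fell by 1.48 ± 0.10. Siglecf was at -0.49 ± 0.12 and did not pass. Marco and Siglecf lay below the negative control median on both SCD arrays, so the size of their differences is less certain. The summed level of the alveolar macrophage list was 14691 and 16145 on the SCD arrays and 7983 and 8581 on the WT arrays, but Car4 alone made up 61.7% to 78.3% of it. Without Car4 the sum was 3717 and 3502 on the SCD arrays and 2860 and 3290 on the WT arrays. Itgax, like Siglecf and Marco, had a difference below 0 (-0.34, not passing), as had Krt79 (-0.07). Mrc1 (0.37) and Pparg (0.38) had differences above 0 and did not pass either. The part of these cells in the values of Casp4, Casp1, Cd14 and the other members was not tested.

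Among 8 T, NK and B cell markers, Nkg7, Klrd1 and Cd3e rose, by 1.18 ± 0.09, 1.11 ± 0.10 and 0.77 ± 0.11, and 0 fell. Cd3g (0.479 ± 0.097) and Cd8a (0.125) did not pass. Neither did the B cell markers Cd79b (-0.345 ± 0.106), Cd79a (0.145) and Ms4a1 (-0.009). The Cd3e call was lost with the replicate block (adjusted p = 0.0519), without the intensity trend (0.0529), with the positive control shift removed (0.0653) and without WT replicate 1 or WT replicate 2 (0.0659 and 0.0753). The platelet markers Ppbp and Pf4 rose by 3.31 ± 0.19 and 1.13 ± 0.15, with Gp9 at 0.14 ± 0.10 and 3 of 5 not passing. The erythroid markers Alas2 and Slc4a1 rose by 3.52 ± 0.10 and 0.87 ± 0.12, and Klf1 (0.28 ± 0.15) was among the 2 of 4 that did not pass. The Pf4 call was lost without WT replicate 1 or WT replicate 2 (adjusted p of 0.0972 and 0.0588). So was that of Slc4a1 (0.109 and 0.0636), which was also lost with the positive control shift removed (0.0625). The summed level of the T, NK and B cell list was 4057 and 4156 on the SCD arrays, against 2833 and 2901 on the WT arrays. That of the platelet list was 6856 and 6807 on the SCD arrays, against 1091 and 1375 on the WT arrays, and that of the erythroid list 4815 and 5192 on the SCD arrays, against 523 and 576 on the WT arrays. All 3 sums were higher on both SCD arrays. Ppbp made up 83.7% and 85.6% of the platelet sum on the SCD arrays, against 44.2% and 51.4% on the WT arrays, and Alas2 96.4% and 96.2% of the erythroid sum on the SCD arrays, against 75.3% and 77.5% on the WT arrays. Itga2b, a platelet integrin gene, was at 0.02 and did not pass. The part of these cells in the members' values was not tested. Of 7 markers of lung epithelium and endothelium, 0 were called, with 1 at an unadjusted p under 0.05 in limma; Cldn5 was at 0.65 ± 0.16, Pecam1 at 0.23 ± 0.10 and Ager, which is also an HMGB1 receptor gene, at 0.17 ± 0.12. Sftpc and Scgb1a1 were at 19.93 on all 4 arrays, identical values from which no direction can be read; they match the labelled tissue.

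**Figure D4:**
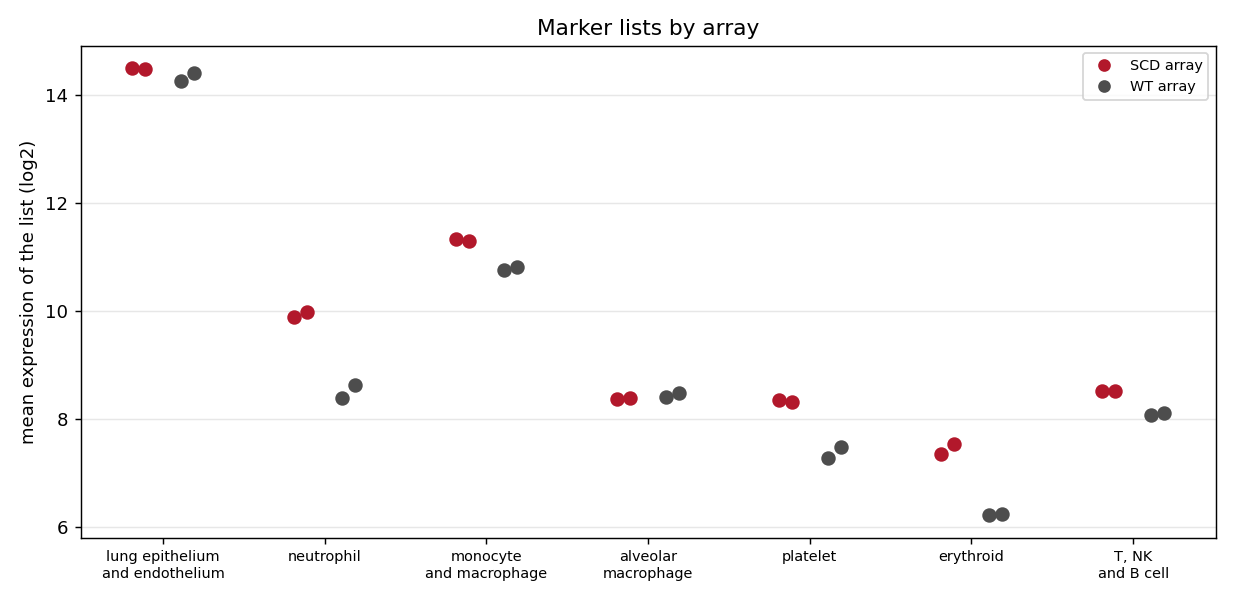
Mean log2 expression of each marker list (vertical axis) on each SCD and WT array (points). The neutrophil list is at 9.89 and 9.98 on the SCD arrays against 8.39 and 8.63 on the WT arrays, while the alveolar macrophage list is at 8.37 and 8.40 on the SCD arrays against 8.41 and 8.48 on the WT arrays.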

How the data were processed

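Whole-lung RNA of 2 SCD and 2 WT samples was measured on Affymetrix arrays after 3' in vitro transcription labelling, per the labels' protocols. The deposited table holds log2 values, 1 for each probe set on each array. RMA, Partek and Affymetrix Expression Console are named, without versions or roles, per the submitters' processing notes; the genome build is not given in the sources used here. The log2 scale was read from the values (1.72 to 19.93). Of 72688 probe sets, 65956 were transcript clusters; the platform annotation, updated through RefSeq (GRCm38.p6), gave 1 gene to 31280 and several to 1470, with 33206 unnamed. With the shared Hmgb1 probe set, 30719 genes were tested, and 30717 symbols were in RefSeq. The arrays have no counts; their number limits precision.

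SCD was compared with WT using limma 3.58.1 in R 4.3.3 (lmFit, eBayes with intensity trend, two-sided, Benjamini-Hochberg), with no filter. The fit was tested on simulated data. The members, lists and tests were chosen with earlier results of these data known. Named genes were all members, Il1b, Il18, Nek7, Tlr2, Casp12 and all strain genes. Named too were up to 4 called genes of a pathway list (otherwise the 1 with the smallest p) and up to 3 of a marker list. The 3 protein-coding genes nearest to a called member were also named. Other genes were named after their values were seen. The lists' Irak1, Irak4, Traf3, Chuk, Nfkb1, Naip1, Ripk1 and Gbp5 had no probe set of their own and are not analysed here. Same-numbered arrays did not deviate together (correlation of -0.0022 across genes). Alternatives were the replicate block, variance priors, dim filters, the probe set rule, 4 normalizations, array weights, other thresholds and each array left out.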

Additional observations from a re-analysis of the deposited data

How the results depend on the processing

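Casp4 kept its direction under all 17 alternatives (1.33 to 1.67) and its call under all but 2, those without SCD replicate 1 and without SCD replicate 2. The other members kept their direction except Gsdmd, at -0.166 with the positive control shift removed and -0.066 to 0.125 with each array left out (below 0 without SCD replicate 1), and none passed except Casp1, when the dimmest 50% of genes were left out and at a threshold of 0.1, both giving 2 members called higher. With each array left out in turn, members called higher ranged from 0 to 1, members called lower were 0 throughout, pathway genes called higher ranged from 0 to 7 and lower from 0 to 1, and all genes called from 0 to 790; without WT replicate 1 it was 513. The 0 calls came without either SCD array, where limma had 4 members at an unadjusted p under 0.05; 1 residual degree of freedom remains there, and the lone array is assumed to vary like the other group's.

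The median member difference was 0.59 with the dimmest 50% left out, which drops Myd88, and 0.25 with the positive control shift removed. Pathway genes called higher numbered 13 with the dimmest 50% left out, and 4 and 18 at thresholds of 0.01 and 0.1; pathway genes called lower numbered 2 with the dimmest 25% or 50% left out, 4 with the control shift removed or at 0.1, and 0 without the intensity trend, where all genes called were 645 against 949. At thresholds of 0.01 and 0.1, all genes called were 286 and 1753. The numbers pair no samples; with the replicate block, 968 genes, 1 member (Casp4, adjusted p = 0.0107) and 10 pathway genes higher were called. Among 47 other named genes over 791 settings, 681 results were unchanged, 86 lost the call (54 of them without an SCD array), 16 gained it and 8 turned direction, none of them called: Pjvk without WT replicate 1 (-0.327 to 0.016 with each array left out), H2-Ea without SCD replicate 1 (-0.046 to 0.313) and Tlr2 without SCD replicate 2 (-0.112 to 0.149), Ager with repeated quantile normalization (-0.063), and, with the control shift removed, Ager (-0.027), Gp9 (-0.057), H2-Ea (-0.062) and Tlr2 (-0.178). Where no construction shows it, the cause was not tested.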
